A study of Homo sapiens with 8 samples.

Results

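The mitochondrial genome was examined as a target of EdU labelling in single RPE-1 hTERT cells. This human line derives from the retinal pigment epithelium and was immortalised with telomerase. Every deposited row placed on the mitochondrial chromosome (MT) was taken, from all 8 plates, and its sign of length gave its direction, plus or minus. These were 78032 of 26148975 rows, each row being 1 sequenced fragment with its cell, chromosome, position and signed length. MT was divided into 332 consecutive windows of 50 bp, of which 329 held at least 1 row. Among these rows, 743, all minus, were placed at 16570, 1 past the last base of MT in the reference, 16569, where the circle is opened, and they were counted in the last window.

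The study compared wild-type (WT) cells with cells lacking CFAP20 (KO), a conserved protein of cilia and flagella. Both genotypes received a single pulse of 10 µM EdU for 15 min, were fixed in 70% ethanol, and were sorted together into each plate for single-cell EdU sequencing, which captures DNA made during the pulse. EdU is a thymidine analogue that replication builds into new strands. The 8 plates held 3023 wells, 1594 WT and 1429 KO. The genotype field of the labels names the knockout for every plate, so the genotype of each well was read from the column named treatment. The sources used here do not say whether the knockout was 1 clone or whether the plates came from separate cultures, so the p-values measure only the spread between these plates.

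Mitochondrial DNA is a small circular genome present in many copies per cell, and it encodes subunits of the respiratory chain, the ribosomal RNAs and the transfer RNAs needed to translate them. In the strand-displacement model its replication begins in the control region at the origin of the heavy strand, and synthesis of the light strand begins later, mainly at an origin between the genes TRNN and TRNC. It is copied by its own polymerase and is not restricted to the S phase of the nucleus.

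Positions in these files fall on recurring cut sites, and 3 nuclear promoters are printed to show how the reported position and the sign of length relate to such a site. They are the protein-coding promoters with the most rows in the weaker direction, read from RefSeq sequence of GRCh38.p14 on the plus strand. Capitals mark the letters CATG, which is the recognition sequence of the restriction enzyme NlaIII. The sources used here do not name the enzyme of these libraries, and MT sequence was not analysed here.

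ZNF841: gattttcatcctCATGagtacaacttaa
ZNF585B: gttgatattgcgCATGctctaaattaac
MMUT: taatagcgctctCATGggcgcattcctg

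The stretch at ZNF841, a zinc finger gene, is chr19:52094236-52094263, where 11 minus rows lay at 52094248, the first base of CATG, and 15 plus rows at 52094252, the base after it. At ZNF585B, another zinc finger gene, chr19:37210564-37210591 held 9 minus rows at 37210576 and 10 plus rows at 37210580. At MMUT, which encodes the mitochondrial enzyme methylmalonyl-CoA mutase, chr6:49463292-49463319 held 8 minus rows at 49463304 and 11 plus rows at 49463308. The RefSeq promoters used were those of the autosomes other than chromosome 8. Across all of them, 90.3% of minus rows had CATG beginning at their position, and 89.0% of plus rows had it beginning 4 bases before. CATG, which reads the same on both strands, was present in 54.9% of the 33551 promoters of 300 bases. A cut site therefore appears in the files as a minus position and a plus position 4 bp to its right.

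MT showed the same spacing between directions. Pairing plus with minus positions on MT gave 10053 paired rows at an offset of 4 bp and 2959 at 5 bp, against 229 to 471 at each of the other offsets from -10 to 10 bp. MT rows were concentrated at few positions. Of 4595 combinations of position and direction with a row, the 10 with most rows held 39.6% of MT rows and the 60 with most held 86.0%. The median window held 20 rows, 80 windows held under 10, and 27 windows with 1000 rows or more held 80.5%. Windows at 2451 to 2500 and 2701 to 2750 in RNR2 and at 12401 to 12450 in ND5 held 0 rows. The map of MT labelling is thus resolved only at these recurring positions, and the level of a window or gene depends on which of them it contains.

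**Figure D1:**
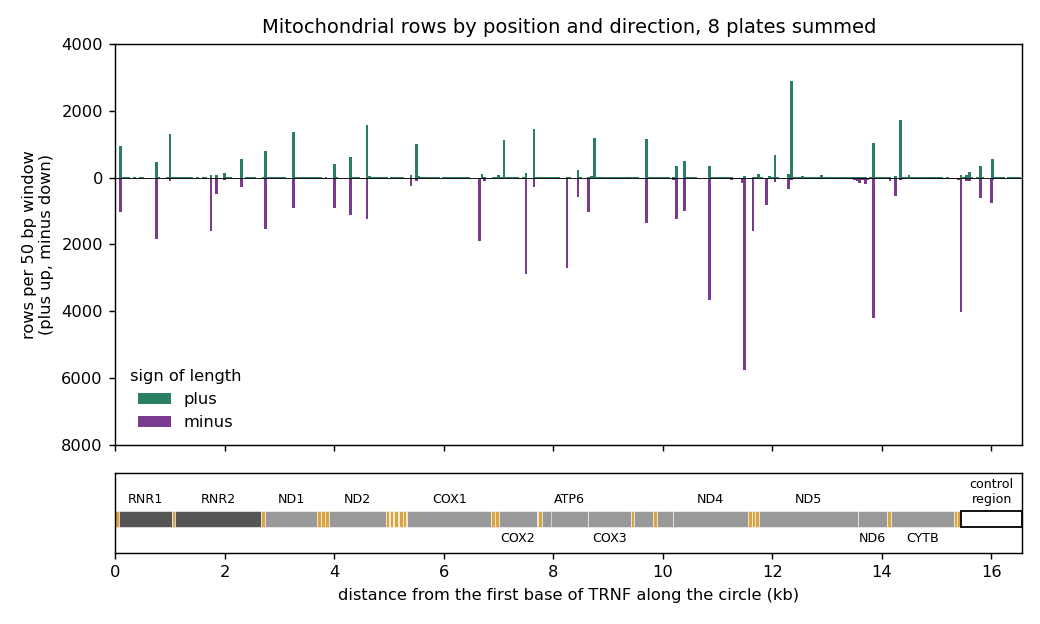
MT rows in each 50 bp window, summed over 8 plates, against distance from the first base of TRNF along the circle in kb, with plus rows drawn upwards and minus rows downwards; the lower strip shows ribosomal (dark), protein-coding (grey) and transfer RNA (yellow) genes and the control region. Most rows sit in a small number of tall bars, and the tallest, 5757 minus rows, lies in ND4.

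Plates held 6279 to 11133 MT rows, 9754 ± 1516 (SD, n = 8), which was 0.266% to 0.361% of the rows of a plate. Plate 8 held the fewest rows of all kinds, 1746074, against 2726578 to 4181841 on the other plates. The window shares of any pair of plates correlated by 0.985 to 0.998 over 28 pairs, as a description across windows. Within a well, 45.5% to 53.7% of MT rows shared position and direction with another row, against 6.09% to 8.57% of autosomal rows. Counting a position and direction once per well would remove 32.0% ± 2.07 of MT rows, whereas rows that also had the same length made up 1.44% ± 0.215 (SD, n = 8 plates for both). No full cell name occurred on more than 1 plate (0 found), although 377 of 378 well barcodes were used on all 8.

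The window with most rows, 12051 to 12100 in ND4, a subunit of respiratory complex I, held 5789 rows or 7.44% ± 0.339 of MT rows (SD, n = 8; lowest 6.84%, median 7.39%, highest 7.89%). Of these rows, 98.0% were minus rows at the single position 12067. The window 14401 to 14450 in ND6, the complex I gene coded on the other strand from most protein genes, held 6.78% ± 0.616, and 16001 to 16050, where TRNP meets the control region, held 5.22% ± 0.241. A second window of ND4, 11401 to 11450, held 5.20% ± 0.386. The next 3 were 8051 to 8100 in COX2, a subunit of cytochrome c oxidase, with 3.86% ± 0.155, 12901 to 12950 in ND5 with 3.78% ± 0.568, and 5151 to 5200 in ND2 with 3.64% ± 0.129. The last 3 of the 10 were 8801 to 8850 in ATP6, a subunit of ATP synthase, with 3.54% ± 0.261, 10251 to 10300 in ND3 with 3.24% ± 0.199, and 3301 to 3350 at the start of ND1 with 2.97% ± 0.291. Together these 10 windows, taken by their total alone, held 45.6% of MT rows.

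By gene, with each row counted at its position, the 13 protein-coding genes held 59399 rows, the 2 ribosomal RNA genes 9216 and the 22 transfer RNA genes 2254. Among the complex I subunits, ND6 had 1391 ± 184 rows per kb and plate, ND4 1242 ± 160, ND3 963 ± 171, ND2 747 ± 122, ND1 643 ± 133, ND5 429 ± 79.5 and ND4L 46.3 ± 15.9 (SD, n = 8 for each). ND4 alone held 17.7% ± 0.942 of MT rows. Among the subunits of cytochrome c oxidase, COX2 had 1121 ± 183 rows per kb, COX3 407 ± 81.8 and COX1 325 ± 67.3. ATP6 had 695 ± 89.9 and ATP8 63.4 ± 13.3, and CYTB, the MT-encoded subunit of complex III, had 344 ± 54.0. The small ribosomal RNA gene RNR1 had 758 ± 132 and the large one, RNR2, 275 ± 45.0. The control region had 793 ± 142 rows per kb, a level inside the range of the protein-coding genes. Of its 7117 rows, 3936 were minus rows at the site at 16030, near its edge.

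Most transfer RNA genes were nearly empty. Of the 22, 21 held a row and 20 held under 80 rows over all plates, and TRNL2 held 0. TRNS2, a serine transfer RNA gene of 59 bp, was the exception with 1652 rows, 3500 ± 674 per kb, of which 2.30% were plus. Window 12201 to 12250, which overlaps it, held 1611 minus rows. The median MT row, 273 bp, was longer than this gene, so its rows per kb describe a cut position rather than labelling of the gene alone. TRNP, next to the control region, held 134 rows.

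MT rows were unevenly divided between the directions. Plus rows made up 33.1% ± 1.44 of MT rows (SD, n = 8; lowest 31.1%, median 32.9%, highest 35.5%), and every plate lay below 50%. The distance from 50% was -16.9 points ± 1.44, with a Benjamini-Hochberg adjusted p of 0.0195 over 5 comparisons by an exact two-sided permutation that flips the sign of each plate. It was -8.08 points (adjusted p = 0.0195) without the 10 windows with most rows. The smallest unadjusted p such a test can give is 0.00781. Autosomal rows of the same plates were 50.4% ± 0.0558 plus.

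Direction differed from site to site. At 37 positions both directions of a cut site had at least 20 rows, and these held 82.3% of MT rows. Minus rows were the more numerous at 25 of them, in all 8 plates for 21, and plus rows at 12, in all 8 plates for 10. At 8 sites the plus share was 10% or less, and at 4 it was 90% or more. Among these sites, the most minus were the ND4 site at 12067, with 0.565% ± 0.287 plus rows, and the ATP6 site at 8835, with 0.784% ± 0.613. The most plus were 3 others: the ND5 site at 12920 had 97.9% ± 0.786 plus rows, the CYTB site at 14902 had 95.5% ± 1.36, and the RNR1 site at 1566 had 93.2% ± 2.43. Sites near balance included 694 in RNR1 with 48.6% ± 2.77 and 10285 in ND3 with 46.3% ± 2.81. Positions with nearly all rows in 1 direction fell outside this list where the other had under 20. Window 12201 to 12250 held 8 plus of 1619 rows, 7651 to 7700 held 1129 of 1139, and 9301 to 9350 held 1191 of 1191. For each stretch between neighbouring sites of this list, plus rows at its left end and minus rows at its right end were counted together. The median was 177.5 rows in 12 stretches under 200 bp, 1788 in 19 of 200 to 800 bp and 2947 in 5 of 800 bp or more. Positions left out of the list can lie inside a stretch, so its ends are not always neighbouring cut sites. The stretch from 7249 to 8070, with 2947 rows, holds window 7651 to 7700, and that from 9250 to 10285 holds window 9301 to 9350. The part of such positions in these medians was not tested. Sites, and with them the stretches, were defined after the values had been seen and are described without a test.

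**Figure D2:**
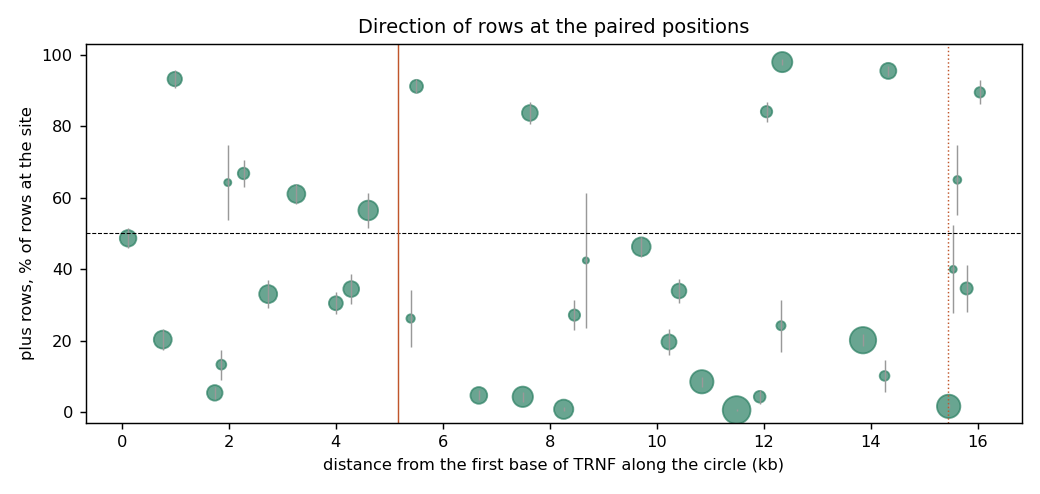
Plus rows as a percentage of rows at each paired site (mean over 8 plates, bars show SD), against distance from the first base of TRNF along the circle in kb; point area grows with the number of rows, the dashed line is 50%, the solid vertical line is the gap between TRNN and TRNC and the dotted one is the start of the control region. Sites of nearly all plus and nearly all minus rows lie side by side, and 25 of 37 lie below 50%.

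Most windows had unequal numbers of plus and minus rows when tested singly. By limma voom on rows per window, with plate as a block and scaled by the MT total of the plate, 14 of 43 windows had more plus than minus rows (32.6% of those tested) and 27 had more minus (62.8%), 95.3% in either direction. The windows 651 to 700 in RNR1, with 935 plus and 1020 minus rows, and 16101 to 16150 in the control region, with 91 and 110, passed in neither direction. A call means unequal counts and not that 1 direction was rare. Window 10251 to 10300 in ND3 was called with 1159 plus and 1374 minus rows. In 4 of the called windows 1 direction was empty. Window 9301 to 9350 in COX3 held 0 minus of 1191 rows, which allows a minus share of up to 0.252%, a limit that covers counting error only. In windows 7201 to 7250 in COX1 and 12451 to 12500 in ND5 the window's edge parts the directions of 1 site, so their calls describe the window and not the site. The site at 7249 had 4.66% ± 1.38 plus rows and that at 12498 had 4.28% ± 2.01. The last window, 16551 to 16569, held 762 minus rows, of which 743 were those placed past the last base.

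Around the circle, the arc from TRNF to TRNN held 26.3% ± 0.867 of MT rows, of which 42.3% ± 1.40 were plus. The arc from TRNC to TRNP, beyond the gap that holds the light-strand origin, held 64.7% ± 1.14, of which 31.4% ± 1.79 were plus. Minus rows led at 7 of 12 sites before that gap and at 15 of 20 after it. The control region held 9.09% ± 0.367 of rows on 6.77% of the length, and 18.7% ± 1.48 of its rows were plus (lowest 16.5%, highest 20.6%). Rows were assigned to it by position, and 3936 of them were minus rows at the site at 16030, near its first base, 16024. How far such fragments lay outside the control region was not measured. The plus share of the control region was lower than that of the rest of MT on all 8 plates, by -15.9 points ± 1.88 (exact sign-flip permutation, adjusted p = 0.0391 over 5). With any 1 plate left out the adjusted p was 0.0781, the lowest that 7 plates allow for the smallest of 5. Of the 7117 rows of the control region, 743 were those placed past the last base, and without them the difference was -13.7 points ± 1.91 (adjusted p = 0.0391). The difference came to -1.17 points ± 3.15 (adjusted p = 0.599) without the 10 windows with most rows, of which 16001 to 16050 alone held 4085 rows at the edge of the control region, 1.52% of them plus. Of the 5 paired sites in the control region, 3 had more minus and 2 more plus rows. One of those 2 is at 44, just past the point where the circle is opened, with 67 minus and 566 plus rows. Whether the 743 minus rows placed at that point belong to this site could not be checked. Counts of sites and windows by direction use the positions as deposited.

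MT rows were longer than autosomal ones, with medians of 273 ± 9.07 bp and 247 ± 7.60 bp. The difference was 25.9 bp ± 6.20 and had 1 sign on 8 of 8 plates (adjusted p = 0.0156 over 2 by exact sign-flip permutation). KO and WT medians differed by -3.19 bp ± 5.45 (adjusted p = 0.172).

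Wells were then compared for their MT rows between classes of nuclear labelling. Wells with under 1000 autosomal rows numbered 593, those with 1000 to 5000 numbered 1516, and those with 5000 or more, called strong wells here, 914. In these classes a well averaged 8.46 ± 2.02, 23.4 ± 3.23 and 40.9 ± 4.86 MT rows (SD, n = 8 plates). The lowest and highest plates were 5.20 and 10.6, 16.1 and 26.5, and 30.9 and 46.9, so the classes did not overlap. The log2 ratio was 1.49 ± 0.31 for the middle over the lowest class, 2.31 ± 0.32 for the highest over the lowest, and 0.81 ± 0.08 for the highest over the middle, each above 0 on 8 of 8 plates (adjusted p = 0.00781 over 3 by exact sign-flip permutation).

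Autosomal rows rose far more steeply, to 624, 1850 and 22399 per well. MT rows per 1000 autosomal rows were therefore 13.5 ± 3.14, 12.8 ± 2.41 and 1.85 ± 0.177. Per kb of sequence, MT rows were 2353, 2219 and 321 times as dense as autosomal rows, for a genome present in many copies. Wells under 1000 held 6.50% of MT rows and 1.54% of autosomal rows, while the strong wells held 48.4% and 86.7%. Within a class, wells with more autosomal rows also had more MT rows: Spearman's rho over the wells of a plate averaged 0.609, 0.371 and 0.539 over the 8 plates. Both counts come from 1 library per well and share its yield, whose part in the class differences was not tested.

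A finer division, with the wells of all plates pooled and no test, showed a level step at the bin of 5000 to 10000 autosomal rows. That bin held 55 WT and 71 KO wells, and the part of the mix of plates in each bin was not tested. In WT the median well held 6 MT rows at 300 to 1000 autosomal rows, 15 at 1000 to 2000, 25 at 2000 to 5000, 22 at 5000 to 10000, 29.5 at 10000 to 20000, 42 at 20000 to 40000 and 57 above 40000. The KO medians were 6, 12, 25.5, 23, 33, 43 and 65, the last from 8 wells. The medians per well did not rise between 2000 to 5000 and 5000 to 10000 autosomal rows, where nuclear labelling rose from 2788 to 7649 rows per WT well. Just inside and outside the lower class limit, wells of 800 to 1000 autosomal rows averaged 12.2 MT rows (median 8) and those of 1000 to 1200 averaged 14.9 (median 9). At the upper limit, 53 wells of 4000 to 5000 averaged 29.6 and 26 wells of 5000 to 6000 averaged 32.9. The medians there went the other way, 28 and 21.5.

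**Figure D3:**
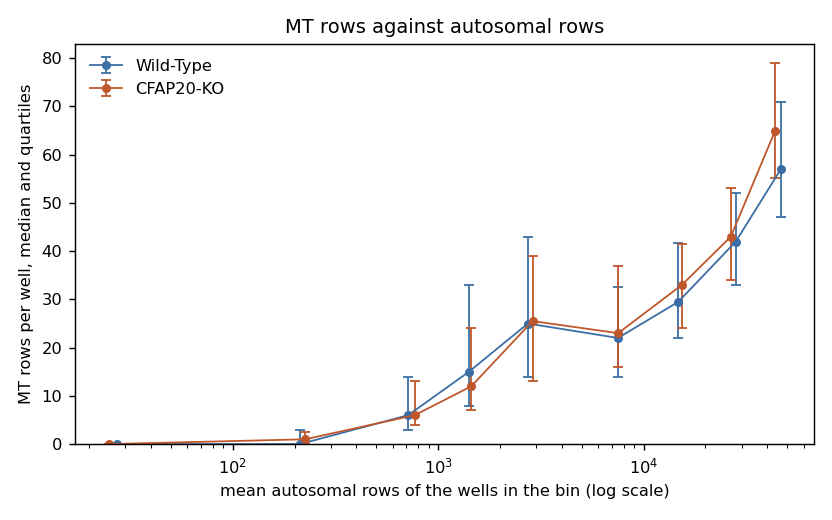
MT rows per well (median, bars show quartiles) against the mean autosomal rows of the wells in each of 9 bins, on a log axis, for WT and KO wells of all plates. Both genotypes climb from 0 to about 25 MT rows, stay level up to the bin of 5000 to 10000, and climb again.

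Wells without MT rows had little nuclear labelling. There were 84 such wells, all under 1000 autosomal rows: 50 of 57 wells with under 100, 22 of 54 with 100 to 300, and 12 of 482 with 300 to 1000. Counts varied widely between the wells of a class, with a variance of 11.05, 15.1 and 13.03 times the mean. Autosomal rows also vary within a class, and many MT rows of a well share a position. The part of either in this spread was not tested. The well with most MT rows, a KO well of plate 7 with 42865 autosomal rows, held 364 MT rows at 102 positions in 65 windows. In strong wells, pairs of rows were counted between windows, relative to the number the window shares of a plate give. Over 914 wells and 37 windows, the observed over expected number of pairs from different windows was 0.976 to 1.025 in every class of distance, and that of pairs from the same window was 1.12, as a description.

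Few windows with a mean of at least 10 rows per library differed in their share of MT rows between classes of well. With a mean of at least 1 row, more windows were tested and many more were called, nearly all higher in the lowest class. That class held 5070 MT rows in all, and the part of low counts was not tested. Of 39 windows tested between the lowest and the highest class, 1 was higher in the lowest class (2.56%) and 1 was lower (2.56%) by limma voom, 5.13% in either direction. Window 11401 to 11450 in ND4 held 6.28% ± 1.16 of MT rows in wells under 1000 and 4.798% ± 0.353 in strong wells (log2 0.39 ± 0.09 SE, adjusted p = 0.0112). Window 14401 to 14450 in ND6 held 4.97% ± 1.19 and 6.43% ± 0.576 (log2 -0.37 ± 0.11 SE, adjusted p = 0.0310). Window 16151 to 16200 in the control region did not pass, with 32 and 141 rows (log2 0.87 ± 0.28 SE, adjusted p = 0.0560), and passed without the rows placed past the last base (adjusted p = 0.0488). With 1 plate left out, none was higher without plate 8 and 2 were without plate 1, 2 or 4, while none was lower without plate 3, 6, 7 or 8 and 2 were without plate 2. The control region's share did not pass between classes, with 9.60% ± 1.44, 8.96% ± 0.541 and 9.17% ± 0.302.

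The plus share differed with class. It was 32.1% ± 2.60, 31.3% ± 1.45 and 35.0% ± 1.44 from the lowest to the highest class. Strong wells exceeded the middle class by 3.74 points ± 1.24 on 8 of 8 plates (adjusted p = 0.0195 by exact sign-flip permutation) and the lowest class by 2.90 points ± 2.03 on 7 of 8 (adjusted p = 0.0260). The second call was lost without any 1 of plates 1, 2, 3, 4, 5, 7 or 8 (adjusted p = 0.0521), with 2.52 to 3.39 points over all 8 plates left out in turn, and it was 1.43 points (adjusted p = 0.264) without the 10 windows with most rows. With shared positions counted once it was 5.29 points (adjusted p = 0.0130).

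The question between genotypes was whether loss of CFAP20 changed MT labelling. In strong wells, MT rows per 1000 autosomal rows were 2.15 ± 0.313 in KO (lowest 1.80, median 2.07, highest 2.79) and 1.64 ± 0.0934 in WT (lowest 1.55, median 1.62, highest 1.77). KO exceeded WT on 8 of 8 plates and the ranges did not overlap. The log2 ratio was 0.38 ± 0.16, or 1.30-fold (exact sign-flip permutation, adjusted p = 0.0234 over 3). Per well the values went the other way: 38.7 ± 3.58 in KO (lowest 33.2, median 39.0, highest 44.3) and 42.6 ± 6.64 in WT (lowest 27.9, median 44.0, highest 50.1). That log2 ratio, -0.13 ± 0.18, was negative on 6 of 8 plates and did not pass (adjusted p = 0.188), but passed without plate 8 (-0.18, adjusted p = 0.0469).

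Autosomal rows moved with this result. KO strong wells held 18271 ± 2854 autosomal rows and WT ones 26082 ± 4825. Among wells with 5000 to 20000 autosomal rows, a limit chosen after the values had been seen, 262 KO wells held 12991 autosomal rows and 166 WT wells 12688, as means over plates. There, MT rows per 1000 autosomal rows were 2.55 ± 0.187 in KO and 2.45 ± 0.482 in WT (log2 0.08 ± 0.34, adjusted p = 0.648). Per well the values were 33.1 ± 2.97 and 31.3 ± 7.01 (log2 0.11 ± 0.33, adjusted p = 0.648). In this range of autosomal rows, no genotype difference in MT rows was detectable at this spread.

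**Figure D4:**
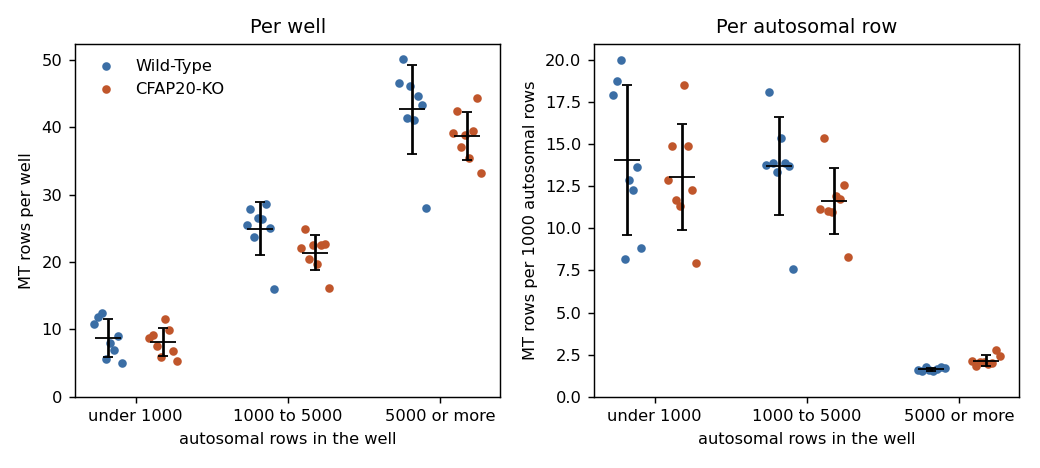
MT rows per well (left) and per 1000 autosomal rows (right) by class of well and genotype; each point is 1 plate, in plate order within a group, and the bar and whiskers are the mean and SD of 8 plates. Per well the genotypes overlap in every class, whereas per 1000 autosomal rows the KO plates of the strong class, 1.80 to 2.79, lie above the WT plates, 1.55 to 1.77.

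In the middle class, autosomal rows per well were alike in KO (1855 ± 154) and WT (1851 ± 195). MT rows per well were 21.4 ± 2.62 in KO (lowest 16.2, median 22.3, highest 24.9) and 24.9 ± 3.93 in WT (lowest 16.02, median 25.9, highest 28.6). KO was lower on 7 of 8 plates, plate 8 being the exception, and the groups overlapped. The log2 ratio was -0.21 ± 0.13 (exact sign-flip permutation, adjusted p = 0.0469 over 3). Per 1000 autosomal rows KO had 11.6 ± 1.96 and WT 13.7 ± 2.92 (log2 -0.22 ± 0.16, adjusted p = 0.0352). The call per well was lost without any 1 of plates 1 to 7 (adjusted p = 0.0938) and that per 1000 rows without any 1 of plates 1 to 6 (adjusted p = 0.0703), while the log2 ratios stayed between -0.27 and -0.18. With plates not treated as pairs, by exact permutation of genotype, neither passed (adjusted p = 0.270 per well and 0.283 per 1000 rows). Wells under 1000 held 8.12 ± 2.08 MT rows in KO and 8.70 ± 2.81 in WT (log2 -0.07 ± 0.45, adjusted p = 0.648). The genotype difference per 1000 autosomal rows itself differed between the strong and the middle class, by 0.60 ± 0.15 on 8 of 8 plates (adjusted p = 0.0469 over 6 by exact sign-flip permutation). Per well that contrast was 0.09 ± 0.12, above 0 on 5 of 8 plates, and did not pass (adjusted p = 0.203 by the same test). The denominator, autosomal rows, differed between the genotypes in strong wells and was alike in the middle class.

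Set among the 22 autosomes and X, MT was one of 7 of 24 chromosomes called between genotypes in strong wells (29.2%), with 5 higher in KO (20.8%) and 2 lower (8.33%). By limma voom scaled on the autosomal total, MT differed by log2 0.38 ± 0.07 SE (adjusted p = 0.000475), the greatest absolute difference of the 24 in that fit. With wells of 1000 or more, again 7 of 24 were called (29.2%), and MT differed by 0.27 ± 0.09 SE (adjusted p = 0.0325). This was lost without plate 2, 3, 6 or 7 (adjusted p = 0.0756, 0.0776, 0.0711 and 0.0527). Both fits use the autosomal total that differed between the genotypes.

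Along MT, few windows were called between genotypes. Of 42 windows tested in wells with 1000 or more autosomal rows, 0 were higher and 1 was lower in KO (2.38%) by limma voom, and 9 had an unadjusted p under 0.05. The window called was 9301 to 9350 in COX3, with 421 KO and 703 WT rows, or 1.32% ± 0.178 and 1.65% ± 0.281 of MT rows. KO was lower on 7 of 8 plates, and the log2 difference was -0.35 ± 0.10 SE (adjusted p = 0.0453). No window was lower without plate 1, 2, 3, 4 or 6, and 2 were lower and 1 higher without plate 7. The control region held 9.70% ± 0.814 of KO rows (lowest 8.43%, highest 10.6%) and 8.66% ± 0.406 of WT rows (lowest 7.96%, highest 9.13%). The difference of 1.04 points ± 1.01 was positive on 6 of 8 plates and did not pass (exact sign-flip permutation, adjusted p = 0.117). It was 1.11 points (adjusted p = 0.0391) without the 10 windows with most rows, and 0.632 points (adjusted p = 0.0781) with shared positions counted once. The plus share was 32.7% ± 1.74 in KO and 33.4% ± 1.52 in WT (-0.75 points ± 1.48, adjusted p = 0.219).

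Position in S phase was taken from the autosomal rows alone. The 2430 wells with 1000 or more autosomal rows were placed along axis 1 of a correspondence analysis over bins of 500 kb, an axis with 18.8% of the variation. The direction of the axis was set so that bins of chromosomes 17, 19 and 22, called early, scored on average below those of chromosomes 4, 13 and 18. Over the 4 segments of that order, strong wells held 37.7 ± 4.03, 43.6 ± 21.8, 45.9 ± 7.30 and 42.1 ± 5.90 MT rows each (SD, n = 8 plates). Of 608, 607, 608 and 607 ordered wells, the segments contained 366, 56, 84 and 408 strong wells. The middle of the order therefore rested on few strong wells and held mostly weakly labelled ones. Whether a middle place in the order marks mid S phase was not tested on these wells.

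Strong wells of segment 4 exceeded those of segment 1 slightly. Segment 4 was above segment 1 on 8 of 8 plates, by log2 0.15 ± 0.07 or 1.11-fold (exact sign-flip permutation, adjusted p = 0.0234 over 3). Autosomal rows per well were also higher, 23031 against 21227, and their part in the result was not tested. Segment 3 over segment 1 was 0.27 ± 0.32 (adjusted p = 0.0586), and passed without plate 5 (0.34, adjusted p = 0.0234). Segment 2 over segment 1 was 0.09 ± 0.59 (adjusted p = 0.727), and was -0.03 without the 1 well with 364 MT rows. With all ordered wells, from 1000 autosomal rows, segments 2 and 3 fell below segment 1, by log2 -0.25 and -0.19 (adjusted p = 0.0234 for both). Those segments then averaged 4064 and 4774 autosomal rows per well, against 13589 in segment 1 and 16443 in segment 4.

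**Figure D5:**
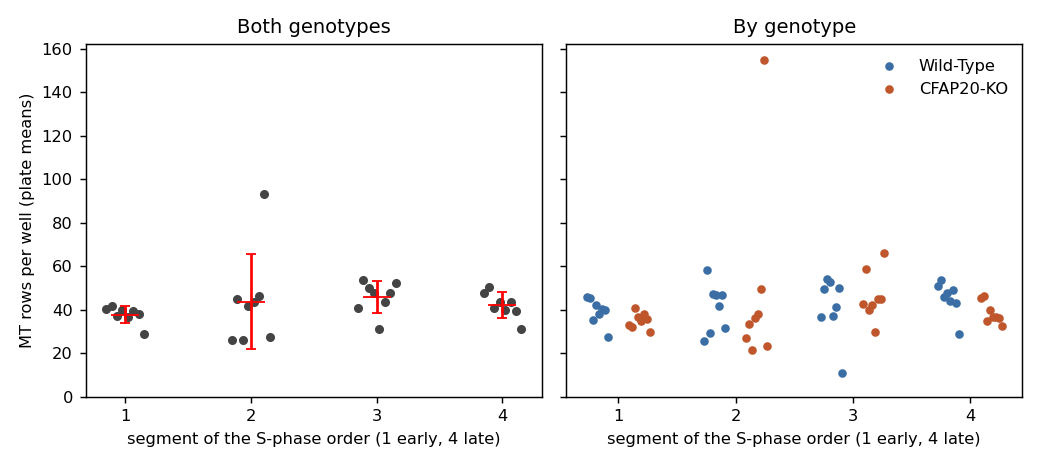
MT rows per strong well by segment of the S-phase order, for both genotypes together (left, with mean and SD of 8 plates) and by genotype (right); each point is 1 plate. Segments 1 and 4 are narrow, and the spread in segments 2 and 3 is wide, where 1 KO point of plate 7 reaches 155.

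No segment showed a genotype difference that passed in strong wells. KO over WT was log2 -0.15 ± 0.25 in segment 1, -0.04 ± 0.78 in segment 2, 0.24 ± 0.98 in segment 3 and -0.23 ± 0.18 in segment 4 (exact sign-flip permutation, adjusted p = 0.371, 0.938, 0.938 and 0.0781 over 5). With all ordered wells, from 1000 autosomal rows, segment 3 turned to -0.19 and passed (adjusted p = 0.0391), and segment 4 passed at -0.25 (adjusted p = 0.0391) without the 1% of wells with most MT rows. In segment 4, KO strong wells held 38.6 ± 4.90 MT rows and WT ones 45.5 ± 7.52, with 18326 and 27989 autosomal rows. The difference between segments 4 and 1 in the genotype effect was -0.08 ± 0.30 (adjusted p = 0.820).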

How the data were processed

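The deposited files hold 1 row per fragment with its cell, chromosome, position, signed length and genotype, per the file headers, and no scaled value. Per the submitters' processing notes positions refer to GRCh38; the sources used here do not name the aligner, its filters or any removal of duplicates. MT positions were used as deposited; the 743 minus rows placed 1 past the last base were kept in all counts, and leaving them out was an alternative chosen after seeing the data. Genes came from RefSeq; the control region is the stretch between TRNP and TRNF.

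Each row was taken as 1 molecule. Wells were classed by autosomal rows. Values per plate were compared by an exact two-sided permutation of signs over the 8 plates, which hold both genotypes per the titles and therefore pair them, with Benjamini-Hochberg adjustment within each family. Over windows, the KO and WT deviations from their group means correlated within a plate by 0.0518, as the mean (-0.202 to 0.331; other plates -0.00729). Rows per 50 bp window with a mean of at least 10 rows per library, and rows per chromosome, were fitted with limma 3.58.1 voom in R 4.3.3, the former scaled by the MT total. Calls use an adjusted p under 0.05. Other values came from Python 3.11.15 with pandas 2.3.3, numpy 2.4.6 and scipy 1.17.1.

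Named items are all MT genes by group, the control region, the 10 windows with most rows, the empty runs of windows, and at most 10 windows per direction past the adjusted p. For windows between directions, those that passed in neither and those with an empty direction are named instead of the full set, chosen after their values were seen. The members, classes and lists were chosen with earlier results of these data known. Alternatives covered duplicates, plates left out, scaling, filters, window size, denominators, the wells and windows with most rows, and the plate as a block.

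On simulated rows for KO against WT over 42 windows, 8 of them changed, all 2-fold and 4-fold changes were called, with 0 false calls, when changed windows each held under 2% of rows. With changed windows of any size the MT total moved by 21.0%, and 2 of 42 windows were false calls, so scaling by the total can create calls where large windows change.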

Additional observations from a re-analysis of the deposited data

Results flagged for a closer look

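Of 51 groups of 8 plate values looked at, 10 had a plate far from the others, by a rule with a nominal rate of about 1 in 20. The groups share plates and wells, and the rate was not measured on these data. Plate 7 stood highest in segment 2 over segment 1 of the S-phase order (log2 1.29) and in KO over WT within segment 2 (log2 1.73); it holds the KO well with 364 MT rows. Plate 8, the plate with fewest rows, stood highest in KO over WT within segment 3 (log2 2.58), from 3 KO wells against 1 WT well, with means of 66 and 11 MT rows per well, and in segment 4 (log2 0.17).

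Plate 8 was also lowest among WT values: 16.02 MT rows per well and 7.57 per 1000 autosomal rows in wells of 1000 to 5000, and 27.9 per well in strong wells. Its share of MT rows was highest in window 11401 to 11450 of ND4 (6.05%) and in 8801 to 8850 of ATP6 (4.12%). Plate 7 had the highest share in window 12901 to 12950 of ND5 (5.11%).

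The genotype difference in MT rows per 1000 autosomal rows differed between strong wells and wells of 1000 to 5000, by log2 0.60 (exact sign-flip permutation, adjusted p = 0.0469 over 6). Per well the same contrast was log2 0.09 and did not pass (adjusted p = 0.203 by the same test).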

How the results depend on the processing

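One limit is depth: with strong wells held to 5000 to 20000 autosomal rows, an alternative chosen after seeing the data, the genotype difference was 0.078 per 1000 autosomal rows and turned to 0.11 per well (log2). MT is resolved only at recurring positions, and rows that share one cannot be assigned to single copies of the genome.

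With no replicate block, so that plates did not pair the genotypes, the middle class stayed at -0.22 per 1000 rows and -0.21 per well but was no longer called; with the plate as a replicate block the window fit called the same number, 1 lower. Without the 1% of wells with most MT rows, the middle class per well was -0.18 and not called, segment 2 over segment 1 was -0.063, and KO over WT in segment 4 passed at -0.25. Without the well with most MT rows segment 2 over 1 was -0.027. With wells of 1000 or more, segments 2 and 3 over 1 turned to -0.25 and -0.19 and KO over WT in segment 3 to -0.19, where it passed (adjusted p = 0.0391 by exact permutation).

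Counting shared positions once turned the plus share of the middle over the lowest class to 1.10 points, raised that of strong over lowest wells to 5.29, and lowered segment 3 over 1 to 0.14 (log2) and the control region's share in KO minus WT to 0.632 points. Without the 10 windows with most rows, the plus share of strong over lowest wells was 1.43 points, that of the control region against the rest -1.17, the control region's share differed by 1.11 points between genotypes, and by 0.523 between strong and lowest wells.

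For windows, KO against WT had 0 lower calls with TMM scaling, a mean of at least 1 row, or wells of 5000 or more, where 9 of 42, 16 of 186 and 6 of 38 had an unadjusted p under 0.05 by limma. With a mean of at least 1 row, 42 windows were plus and 107 minus, of more windows than the 43 tested in the main fit. Under that setting 38 were higher and 2 lower in the lowest class, of more windows than the 39 tested in the main fit. There, 1 and 1 were called. The lowest class held 5070 MT rows in all, so the windows added had few rows there, and the part of low counts was not tested. Of at most 39 windows tested, that class had 5 higher and 0 lower with shared positions counted once, and 2 higher without the rows placed past the last base. The latter was an alternative chosen after seeing the data. Scaled by the total of each direction, a choice made after seeing the data, 17 of 43 windows were plus and 21 minus, against 14 and 27 in the main fit.

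With 1 plate left out in turn, KO over WT (log2) ranged from -0.16 to 0.022 per 1000 rows and from -0.16 to 0.019 per well under 1000 rows, from -0.27 to -0.20 and from -0.24 to -0.18 in the middle class, and from -0.18 to -0.11 per well in strong wells. Segment 2 over 1 ranged from -0.078 to 0.20 and segment 3 over 1 from 0.19 to 0.34; KO over WT ranged from -0.29 to 0.071 in segment 2 and from -0.094 to 0.34 in segment 3. The plus share of strong minus lowest wells ranged from 2.52 to 3.39 points. That of the control region minus the rest ranged from -16.2 to -15.3 points, with an adjusted p of 0.0781 each time by exact permutation, the lowest that 7 plates allow for the smallest of 5. MT among chromosomes, from 1000 rows, ranged from 0.22 to 0.32. Windows called between genotypes numbered 0 to 1 higher and 0 to 2 lower, and between classes 0 to 2 in each direction. The other results kept their side of the threshold.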
